A study of Mus musculus with 8 samples.

Results

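Voltage-gated sodium channels and the fibroblast growth factor homologous factors (FHFs) that bind them were examined in 8 tumors of LSL-MYCN;Dbh-iCre mice. The set held 9 genes: the channel genes Scn2a, Scn3a, Scn8a, Scn9a and Scn3b, and the FHF genes Fgf11, Fgf12, Fgf13 and Fgf14. It was chosen by the wide spread of Fgf13 over the tumors in these same arrays, so the spread of Fgf13 is given as a description and is not tested. All probe sets annotated to 1 of these genes were taken, 29 of 34958 such probe sets in the series, and the 9 genes stand among 18194. In these mice a human MYCN transgene at ROSA26, under the CAG promoter, is silent until Cre, driven by Dbh regulatory sequence in noradrenergic cells, removes a stop cassette. Every tumor carried both transgenes, was untreated, and was profiled on 1 Affymetrix array from total RNA of whole tissue. The adrenal was the site of tumors 1 to 6, and the superior cervical ganglion at the top of the neck's sympathetic chain that of tumors 7 and 8. The labels give neither age nor strain of the mice, and normal tissue was not analysed here.

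A sodium channel is built around an alpha subunit, a single long protein that forms the pore and senses voltage, and one or more beta subunits, short membrane proteins that tune gating and surface level. The channels gather at the axon initial segment, where the action potential of a neuron starts. FHFs resemble fibroblast growth factors in fold, but they are not secreted. They stay in the cell and bind the intracellular tail of the alpha subunit, where they change inactivation and the placing of the channel. In the sympathetic lineage, from which neuroblastoma arises, excitability is a property of differentiating neurons and chromaffin cells.

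Values are log2 expression, so a difference of 1 is a doubling of signal. A probe set was called detected where it exceeded the 95th percentile of 86 receptor probe sets of smell and taste on the same array, a limit of 6.71 to 7.21. The probe set of highest mean stands for each gene, and levels of different genes are not compared, since probes differ in brightness. These arrays average all cells of a piece of tissue, so fewer cells of a type and less RNA per cell cannot be told apart. Some tumors stood apart in other genes: tumor 7 had low noradrenergic markers, against the lineage named by its model, tumor 6 had liver and adrenal cortex markers, tumor 5 had low fibroblast markers, and tumor 1 had a sign of degraded RNA. Their values are given beside the results they touch, with the results without tumor 7.

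Fgf13, the gene behind the choice of the set, has 4 annotated starts in RefSeq (GRCm38.p6), all on the minus strand of chromosome X. The 250 bases before each start are printed 5′ to 3′, with CG dinucleotides in capitals, because they show how unlike the starts of this one gene are. The arrays do not tell which start a tumor used.
Fgf13 start 1, chrX:59585573-59585822: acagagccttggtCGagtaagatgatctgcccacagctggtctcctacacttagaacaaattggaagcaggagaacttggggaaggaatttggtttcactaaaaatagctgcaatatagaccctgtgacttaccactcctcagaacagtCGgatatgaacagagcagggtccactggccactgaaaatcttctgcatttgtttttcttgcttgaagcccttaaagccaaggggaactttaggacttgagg
Fgf13 start 2, chrX:59567349-59567598: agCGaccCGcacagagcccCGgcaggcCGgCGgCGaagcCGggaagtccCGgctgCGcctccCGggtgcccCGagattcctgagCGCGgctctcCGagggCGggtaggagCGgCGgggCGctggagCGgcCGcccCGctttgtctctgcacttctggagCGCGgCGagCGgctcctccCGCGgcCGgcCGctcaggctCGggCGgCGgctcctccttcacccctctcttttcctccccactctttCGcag
Fgf13 start 3, chrX:59166089-59166338: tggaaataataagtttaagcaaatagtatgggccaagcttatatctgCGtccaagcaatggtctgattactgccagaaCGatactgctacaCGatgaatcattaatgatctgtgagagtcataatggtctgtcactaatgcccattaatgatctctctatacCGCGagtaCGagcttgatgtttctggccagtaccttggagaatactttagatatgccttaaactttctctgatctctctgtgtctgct
Fgf13 start 4, chrX:59134437-59134686: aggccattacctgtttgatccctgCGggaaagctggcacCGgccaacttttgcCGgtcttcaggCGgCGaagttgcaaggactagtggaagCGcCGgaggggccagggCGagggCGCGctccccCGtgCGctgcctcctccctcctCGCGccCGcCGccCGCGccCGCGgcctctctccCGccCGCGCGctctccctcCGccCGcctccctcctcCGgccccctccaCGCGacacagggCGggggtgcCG
Starts 2 and 4 lay in dense CG sequence, with 33 and 31 CG dinucleotides and GC contents of 74.8% and 74.4%. Starts 1 and 3 held 2 and 6, with 45.6% and 40.4% GC. The median over 32851 mouse promoter windows of this length was 6 CG dinucleotides and 52.4% GC. RefSeq held windows for 7 of the 9 genes, 15 in all. The E-box CACGTG, a sequence bound by MYC proteins, was searched on both strands and was in 0 of the 15 windows and in 6.02% of all windows. The core promoter sequence TATAAA was in 1 of the 15, before a start of Scn2a, and in 12.4% of all. A missing match says only that these letters are absent from the window.

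On the brightest probe set of each gene, the alpha subunits and Scn3b were detected in every tumor, whereas no FHF gene was. This depended on the limit: at log2 5, 8 of the 9 genes were detected in all tumors. Scn2a, Scn3a, Scn8a, Scn9a and Scn3b were detected in all 8 tumors, as were 61.3% of the 16254 genes tested. Fgf12 and Fgf13 were detected in 7 tumors each, Fgf14 in 2 on its brightest probe set and in 3 on any, and Fgf11 in none. Over single probe sets, 9 of the 29 were detected in all tumors, 12 in some and 8 in none.

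**Figure D1:**
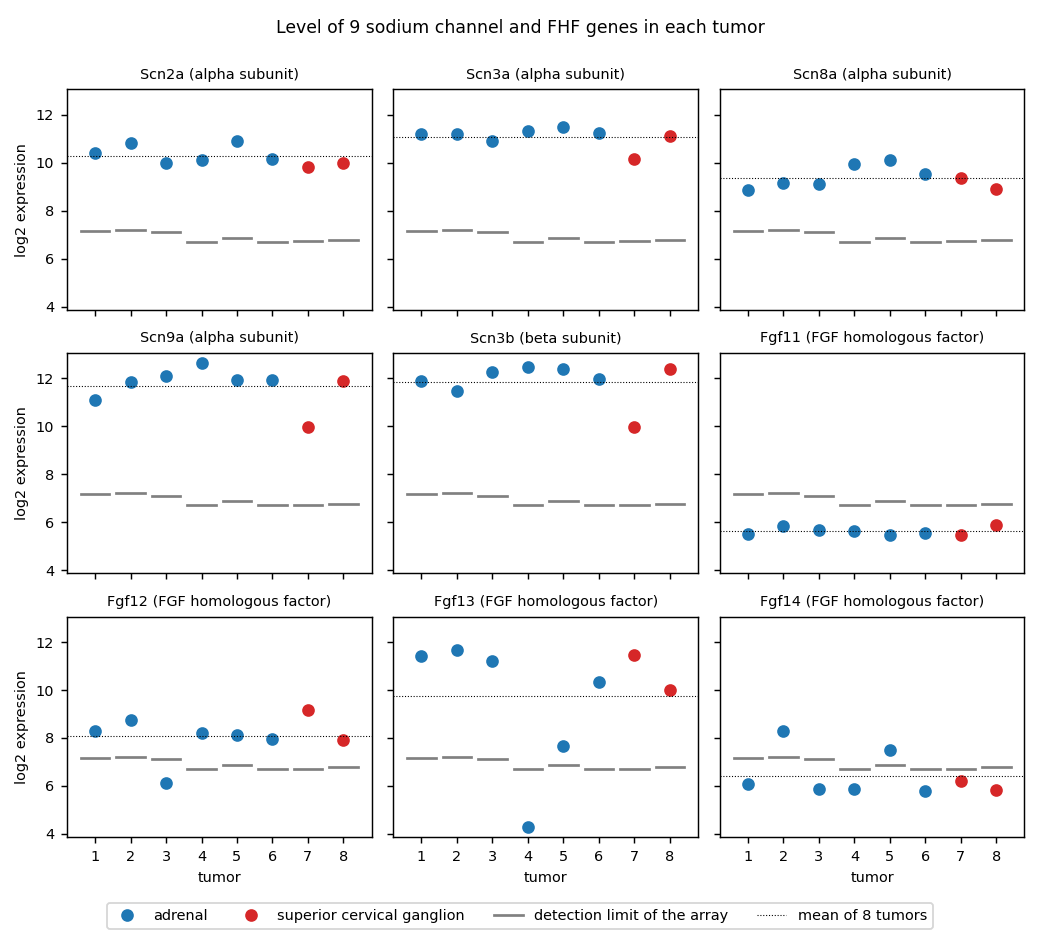
Log2 expression (vertical axis) of the 9 genes in tumors 1 to 8 (horizontal axis), 1 point per tumor, blue for adrenal and red for superior cervical ganglion, with the detection limit of each array as a grey bar and the mean of the 8 tumors as a dotted line. The 5 channel genes lie above the limit in every tumor, while Fgf13 falls to 4.28 in tumor 4, Fgf12 to 6.10 in tumor 3, and Fgf14 exceeds the limit in tumors 2 and 5.

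Scn2a encodes a pore subunit of axons that appears early in neuronal development. It measured 10.39, 10.82, 9.99, 10.12, 10.89 and 10.16 in adrenal tumors 1 to 6, and 9.82 and 9.97 in ganglion tumors 7 and 8. The SD over the 8 tumors was 0.40. On this brightest probe set tumors 2 and 5 were highest, and both ganglion tumors lay just below every adrenal tumor. A probe set of the same gene, 1427280_at, ran from 8.72 to 9.61 and was also highest in tumors 5 and 2 (r = 0.80 with the first over 8 tumors), whereas on 1427281_at tumor 1 was lowest at 6.05, below 7.21 to 8.19 in the rest. Tumor 1 was also the array in which the 3′ probe set of Gapdh exceeded the 5′ one most, by 5.51 against 0.47 to 1.57 elsewhere, a sign of RNA integrity. Its part in that value was not tested.

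Scn3a, the pore subunit best known from the embryonic nervous system, was the steadiest channel gene outside tumor 7. It measured 11.19, 11.19, 10.92, 11.32, 11.50 and 11.23 in the adrenal tumors, 10.15 in tumor 7 and 11.11 in tumor 8. Its SD was 0.41 over 8 tumors and 0.18 over the 7 without tumor 7. Tumor 8 thus sat inside the adrenal range and tumor 7 below it.

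Scn8a, the pore subunit of mature initial segments and nodes of Ranvier, followed another order. Its levels were 8.86, 9.15, 9.13, 9.96, 10.11 and 9.53 in the adrenal tumors and 9.36 and 8.89 in the ganglion tumors (SD 0.46, n = 8 tumors). Tumors 5 and 4 were highest, and tumor 7 lay in the middle. The probe sets 1457412_at and 1439889_at, detected in all tumors too, were likewise highest in tumors 5 and 4, with r = 0.95 and 0.87 to the first. These correlations between probe sets describe 8 arrays of 1 gene and carry no p.

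Scn9a encodes the pore subunit of peripheral sensory and sympathetic neurons. Levels were 11.10, 11.87, 12.10, 12.64, 11.92 and 11.94 in the adrenal tumors, 9.98 in tumor 7 and 11.90 in tumor 8 (SD 0.81, n = 8 tumors). This probe set, 1442810_x_at, is of a type whose probes may match other transcripts. The probe set 1442809_at, not of that type, gave the same picture, with 8.98 in tumor 7 and 10.49 to 11.73 in the others (r = 0.98, and 0.93 without tumor 7). A further probe set, 1457819_at, was also lowest in tumor 7, at 6.55, which was under the limit of that array.

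Scn3b, the beta subunit in the set, was lowest in tumor 7 by a wide margin. It measured 11.90, 11.49, 12.27, 12.50, 12.39 and 11.99 in the adrenal tumors, 9.99 in tumor 7 and 12.40 in tumor 8. The SD fell from 0.83 over the 8 tumors to 0.36 without tumor 7. Its second probe set, 1426328_a_at, stood at 5.32 in tumor 7 against 6.55 to 7.70 in the others, and was detected in 4 tumors.

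Fgf11 was not detected in any tumor on either probe set. The levels of 1421793_at were 5.45 to 5.84 in the adrenal tumors, 5.47 in tumor 7 and 5.89 in tumor 8. On 1439959_at tumor 7 was highest at 6.17, against 4.90 to 5.38, but all of these were under the detection limit and have no order that can be read as expression.

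Fgf12, an FHF of brain and heart, was low in 1 adrenal tumor. It measured 8.29, 8.74, 6.10, 8.20, 8.13 and 7.97 in the adrenal tumors and 9.18 and 7.91 in the ganglion tumors (SD 0.90, n = 8 tumors). Tumor 3, at 6.10, was the sole tumor under the limit, and tumor 7 was highest. The other probe sets gave the same lowest tumor. In tumor 3, 1451693_a_at stood at 6.43, against 7.32 to 8.01 elsewhere, and 1436432_at at 5.25, against 5.90 to 6.71, the latter under the limit in all tumors. Over the 8 tumors r with the first was 0.95 and 0.96.

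Fgf13, an FHF that also binds microtubules in growing axons, spanned 7.40 on the log2 scale. It measured 11.42, 11.68, 11.22, 4.28, 7.66 and 10.35 in adrenal tumors 1 to 6, and 11.45 and 10.01 in ganglion tumors 7 and 8, with a mean of 9.76 and an SD of 2.57. In order, tumors 2, 7, 1 and 3 were highest, followed by tumors 6 and 8, then tumor 5, and last tumor 4, the sole tumor under its limit. With 1 array per tumor, no error can be given for a single tumor, and the small steps among the 4 highest have none to be set against. The spread lay within the adrenal group, whose SD was 2.92. Among the genes tested, the SD of Fgf13 stood at the 99.93 percentile, which restates the choice of the set. The SDs of Fgf14, Fgf12, Scn3b and Scn9a stood at the 96.5, 96.1, 95.1 and 94.7 percentiles, those of Scn8a, Scn3a and Scn2a at 82.1, 76.9 and 75.2, and that of Fgf11 at 20.7.

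The second Fgf13 probe set, 1418498_at, kept the 2 lowest tumors at far lower signal. It gave 5.92, 6.18, 5.89, 4.73, 5.13 and 5.58 in the adrenal tumors and 6.24 and 5.52 in the ganglion tumors. Tumor 4 was again lowest and tumor 5 next, although all 8 values were under the limit. The correlation between both probe sets was 0.95 over the 8 tumors.

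Genes next to Fgf13 on chromosome X were compared between tumor 4 and the other tumors. The Fgf13 value in tumor 4 lay under the limit of its array, 6.71, and the mean of the other tumors, 10.54, exceeded that limit by 3.83 on the log2 scale, which is a bound on the difference. Its 10 nearest measured neighbours, 5 on each side by gene order, differed by -0.62 to 0.11 between tumor 4 and the other tumors. The value of -0.62 was that of F9, detected in 1 tumor only. F9 stood at 4.52 in tumor 4 and at 4.42 to 7.92 in tumors other than 4 and 5. Of these neighbours 7 were detected in no tumor and can show little. Arhgef6, an exchange factor, and Rbmx, an RNA-binding protein, were detected in all tumors and stood at 7.88 and 10.68 in tumor 4, against 7.87 to 8.42 and 10.37 to 10.76 in tumors other than 4 and 5. The median difference over 511 genes of chromosome X was -0.02. Xist, the RNA of the inactive X, was 12.57, 13.69 and 13.18 in tumors 1, 4 and 7 and 6.15 to 6.64 in the rest, so the tumors with high Xist included both the lowest Fgf13 value and some of the highest.

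Fgf14, an FHF known from cerebellar neurons, split by probe set. On 1435747_at the adrenal tumors measured 6.08, 8.30, 5.86, 5.88, 7.51 and 5.78 and the ganglion tumors 6.20 and 5.83, so that tumors 2 and 5 alone were detected. On 1447480_at tumor 7 stood at 8.14, tumor 2 at 5.68 and the others between 3.79 and 4.12. On 1458830_at tumor 7 stood at 8.12, tumor 2 at 4.69 and the others between 3.62 and 4.19. Both were thus detected in tumor 7 alone, where the first probe set was not. The pair correlated at r = 0.97 with each other, and at 0.90 without tumor 7. The fourth probe set, 1449958_a_at, was under the limit in all tumors. The transcripts that each probe set reads were not given in the sources used here.

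**Figure D2:**
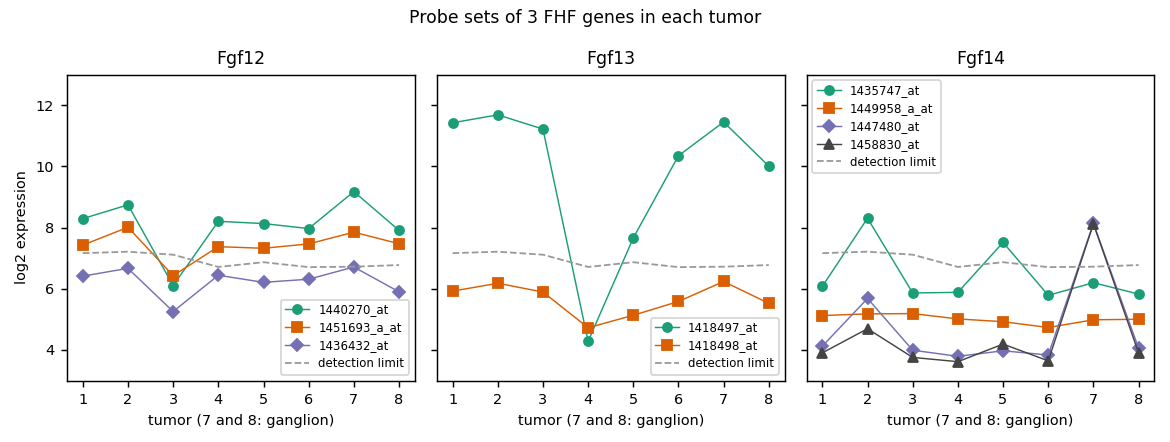
Log2 expression (vertical axis) of each probe set of Fgf12, Fgf13 and Fgf14 in tumors 1 to 8 (horizontal axis), 1 line per probe set, with the detection limit dashed. The probe sets of Fgf12 share a low point in tumor 3 and those of Fgf13 in tumor 4, whereas 1 Fgf14 probe set peaks in tumors 2 and 5 and a pair of others, which overlap in the plot, peaks in tumor 7.

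The FHF genes therefore varied in different tumors. Fgf13 was lowest in tumor 4, Fgf12 in tumor 3, and Fgf14 was detected in tumors 2 and 5 on its brightest probe set. In tumor 4 Fgf12 was 8.20, inside the range of the others, and in tumor 3 Fgf13 was 11.22. Among pairs of the 9 genes, Scn2a and Fgf14 had r = 0.86 over the 8 tumors but a rank correlation of 0.48, since both were highest in tumors 2 and 5. Scn9a and Scn3b had r = 0.89, and 0.51 without tumor 7. Scn3a and Scn3b had r = 0.86, and 0.16 without tumor 7. Fgf13 and Scn3b had r = -0.51 and a rank correlation of -0.93, the tumors low in Fgf13 being among those high in Scn3b. Fgf13 and Scn8a had r = -0.77, and -0.03 without tumors 4 and 5, the 2 farthest from the median of Fgf13. All of these are descriptions over 8 arrays that share normalization.

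The genes whose pattern over the 8 tumors was most like that of Fgf13 were sought among 2062 genes detected in at least 2 tumors with an SD of at least 0.5. The highest Pearson r were those of Tom1l1 (0.86), St6gal2 (0.85), Pcdh10 (0.83), Celf2 (0.81), Osmr (0.76), Pmp22 (0.76), Ccl8 (0.75), Twist1 (0.74), Bche (0.73) and Fabp4 (0.73). Without tumors 4 and 5, r was 0.81 for St6gal2, a sialyltransferase, 0.71 for Twist1, a transcription factor, and 0.56 for Tom1l1, an adaptor protein. It was 0.47 for Ccl8, a chemokine, and fell to 0.30 for Pmp22, 0.25 for Celf2, 0.16 for Fabp4, 0.10 for Pcdh10, -0.13 for Bche and -0.58 for Osmr. The likeness of most of the 10 thus rested on those 2 tumors. Twist1 measured 9.88, 9.78, 6.18, 4.95, 4.84, 6.07, 9.23 and 7.10 in tumors 1 to 8, high in tumors 1, 2 and 7 and lowest in 4 and 5, but low in tumor 3, where Fgf13 was high. St6gal2 measured 7.78, 8.76, 7.92, 3.35, 7.07, 7.93, 8.95 and 5.27, with its lowest value in tumor 4 as well. The most opposed genes were C130075A20Rik (r = -0.86), Bcl9 (-0.83), 1500004A13Rik (-0.80), Arhgef18 (-0.78) and Tex15 (-0.77). Without tumors 4 and 5, r was -0.86 for Arhgef18, -0.65 for C130075A20Rik, -0.62 for Bcl9 and -0.51 for 1500004A13Rik, and turned to 0.29 for Tex15. Bcl9, a cofactor of Wnt signalling, was 9.16 and 8.89 in tumors 4 and 5 and 7.28 to 8.66 in the rest.

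Whether the site of the tumor went with the level of these genes was asked with limma over 16254 genes, 6 adrenal against 2 ganglion tumors. None of the 8 genes other than Fgf13 passed an adjusted p of 0.05, and 3 genes did over the whole array, or 0.0185%. The 3 were Acta1 and Tnnt3, both skeletal muscle genes, and Clvs2, a gene named after its values were seen. Tnnt3 was detected in no tumor, with values of 4.47 to 6.23. Without tumor 8 the counts rose to 954 genes and 3 of the 8 (Scn3a, Scn9a and Scn3b), with tumor 7 as the lone ganglion tumor. At an unadjusted p under 0.05, 1 of the 8 members passed (Scn3a), against 4.68% of all genes. These p-values weigh each site difference against the variation within sites and take the tumors as independent. Whether all tumors are of different mice is not stated in the sources, so that could not be checked.

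Among the channel genes all differences between sites were negative. Ganglion minus adrenal was -0.60 for Scn3a (SE 0.25, 95% interval -1.16 to -0.03, limma adjusted p = 0.903). For Scn9a it was -0.99 (SE 0.50, interval -2.12 to 0.14, limma adjusted p = 0.903). For Scn3b it was -0.90 (SE 0.54, interval -2.11 to 0.32, limma adjusted p = 0.903). These 3 rested on tumor 7: without it they were -0.11, -0.03 and 0.31. Scn2a differed by -0.50 (SE 0.26, interval -1.09 to 0.09, limma adjusted p = 0.903) and by -0.42 without tumor 7. On the brightest probe sets it was the sole member whose sites did not overlap, with the ganglion lower. Such a separation held for 2.1% of all genes, and the reverse for 2.31%. On 1427280_at the sites of Scn2a overlapped, with tumor 8 at 9.05 and adrenal tumors 1 and 3 at 8.78 and 9.03. On 1427281_at the difference was -0.0082. Scn8a differed by -0.33 (SE 0.34, interval -1.10 to 0.44, limma adjusted p = 0.943), by -0.56 without tumor 7 and by -0.10 without tumor 8.

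Among the FHF genes, Fgf12 differed by 0.63 (SE 0.63, interval -0.80 to 2.07, limma adjusted p = 0.942), and by less than 0.01 without tumor 7. Fgf14 differed by -0.56 (SE 0.67, interval -2.09 to 0.97, limma adjusted p = 0.952) on its brightest probe set and by -0.21 without tumor 2. The sign turned on 1447480_at, at 1.86, and with the mean of its probe sets, at 0.83. Fgf11 differed by 0.07 (SE 0.16, limma adjusted p = 0.977). The mean of Fgf13 was 9.43 in the adrenal and 10.73 in the ganglion tumors, a difference of 1.29 that is not tested and that was 0.26 without tumor 4, 0.57 without tumor 7 and 2.01 without tumor 8. The median difference of the 8 members tested was -0.53, beside -0.03 over all genes. Without tumor 7 these medians were -0.07 and 0.01. The intervals are wide, and 1 site held 2 tumors that were unlike.

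**Figure D3:**
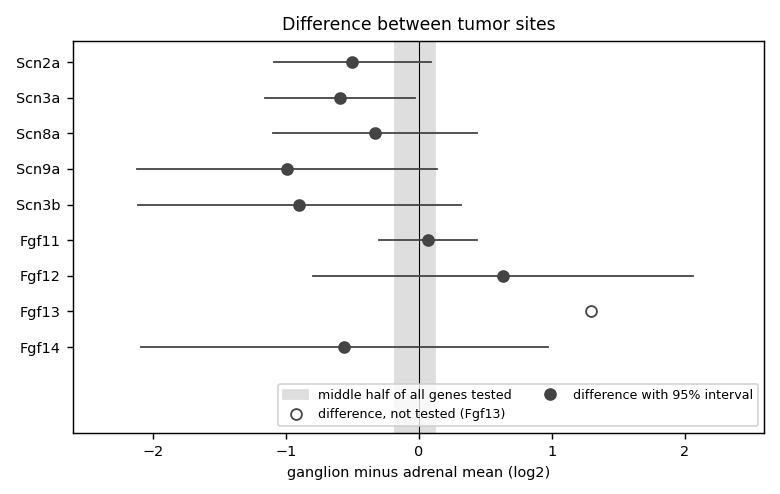
Difference in mean log2 expression between ganglion and adrenal tumors (horizontal axis) for each of the 9 genes (vertical axis), with 95% intervals from limma as lines, and the range from the 25th to the 75th percentile of all genes tested shaded, -0.18 to 0.13. The interval of Scn3a ends just short of 0 and those of the other genes with an interval cross it; Fgf13, the open circle, is shown without an interval.

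Tumor 7 was the lowest tumor for 4 of the 9 genes, Scn2a, Scn3a, Scn9a and Scn3b, and for 26.4% of all genes. It was the highest for 1, Fgf12, and for 17.3% of all genes. Taking the brightest probe set of each gene, 1 tumor stood apart from the other 7 by Dixon's gap criterion in 3 of the 9 genes, Scn3a, Scn3b and Fgf12, as it did in 15.1% of all genes. In Scn3a and Scn3b this was tumor 7, in Fgf12 tumor 3.

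In tumor 7 other detected sodium channel genes were low as well, though the member Scn8a, at 9.36, lay in the middle. Of 7 further sodium channel genes measured here, 4 were detected in at least 1 tumor. These 4 were lowest in tumor 7. Over all 7 the count was again 4, beside 26.4% of all genes tested, detected or not. Scn2b, a beta subunit that links to the alpha subunit by a disulfide bond, stood at 4.08 in tumor 7 beside 7.67 to 9.57 in the others. Scn7a, a sodium-sensing channel of glia and some neurons, stood at 6.14 in tumor 7 beside 7.53 to 10.09 in the others. Scn1a was 6.41 against 6.95 to 8.02, and Nalcn, the sodium leak channel, 10.04 against 10.42 to 11.52. Scn10a and Scn11a, channels of pain-sensing neurons, and Scn4b were detected in no tumor. None of the 7 passed the site comparison at an adjusted p of 0.05, and 1 passed unadjusted, beside 4.68% of all genes.

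**Figure D4:**
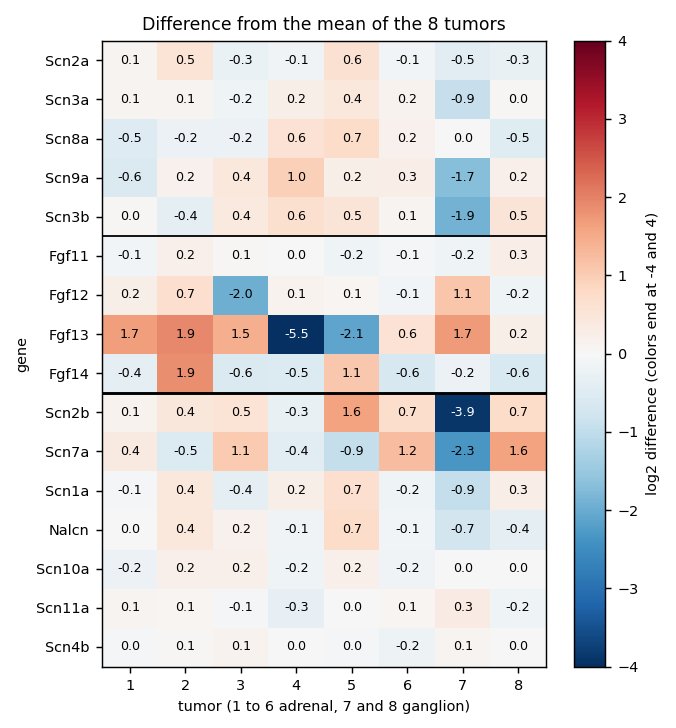
Difference of each gene from its mean over the 8 tumors on the log2 scale (color and printed value), with genes as rows and tumors 1 to 8 as columns; lines separate the channel genes, the FHF genes and 7 further sodium channel genes. Tumor 7 is low for Scn3a, Scn9a, Scn3b, Scn2b and Scn7a, while the low values of Fgf12 and Fgf13 lie in tumors 3, 4 and 5.

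The markers of the noradrenergic lineage were also low in tumor 7. Of 13 measured markers of noradrenergic neuroblasts, 12 were lowest in tumor 7, and their mean relative to each gene's average was -3.18 there against 0.29 to 0.63 in the other tumors. Ddc, Slc6a2, Tfap2b and Gata3 measured 7.38, 6.65, 7.00 and 5.22 in tumor 7, and at least 13.66, 12.37, 12.78 and 11.12 elsewhere. The sensory neuron list, 10 markers, averaged 0.35 in tumor 7 and -0.27 to 0.28 elsewhere. Its members went both ways in tumor 7. Pou4f1 stood at 9.92 there beside 4.93 to 5.49 in the others, and P2rx3 at 10.59 beside 7.53 to 9.63. Avil, at 7.16 beside 8.45 to 10.45, and Prrxl1, at 9.34 beside 10.02 to 11.09, were lowest there. Neurog1, Neurog2, Calcb, Scn10a and Scn11a were detected nowhere. The Schwann cell list, 8 markers, averaged -1.23 in tumor 7 and -0.71 to 0.81 elsewhere. The skeletal muscle list, 12 markers, averaged 0.93 in tumor 7 and 0.57 in tumor 8, with -0.43 to -0.07 in the adrenal tumors. The part of these in the low channel values of tumor 7 was not tested. Liver markers averaged 5.01 and adrenal cortex markers 1.20 in tumor 6, where the 9 genes lay inside the range of the other tumors except Fgf14, lowest there at 5.78 under the limit. In tumor 5, second lowest for Fgf13 and highest for Scn2a, Scn3a and Scn8a, the lists of fibroblast and pericyte (8 markers), endothelial (7) and macrophage (9) genes had their lowest averages, -1.62, -0.65 and -0.63. In tumor 4, lowest for Fgf13, these averages were -0.21, -0.21 and 0.01. Their part in the levels of the 9 genes was not tested.

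The partners of the channels at the initial segment were largely present. Of 16 measured genes of 17 listed, 13 were detected in all 8 tumors, beside 61.3% of all genes tested. None passed the site comparison, which 0.0185% of all genes passed. Tumor 7 was lowest for 7 of the 16, beside 26.4% of all genes. Their median SD was 0.38. The genes of Chl1 and Cntn1, adhesion proteins of axons, were highest in tumors 2 and 5, as were Scn2a and Fgf14 on their brightest probe sets. Chl1 was 11.98 and 11.70 in tumors 2 and 5 and 9.51 to 10.73 in the others. Cntn1 was 12.29 and 12.12 in tumors 2 and 5 and 10.32 to 11.01 in the others. These 2 were named for their high SD, with Kcnq3, an M-current channel of 9.78 to 11.08, and Dlg4, a scaffold protein. Dlg4 was 7.12 in tumor 1, the tumor with the sign of degraded RNA, and 9.21 to 10.26 in the rest. Cntnap1, a protein of myelinated axons, was detected in no tumor.

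Of 20 listed regulators and binding partners of the channels and FHFs, 15 were measured and 13 detected in all tumors. Among all genes tested, 61.3% were detected in all tumors. Of the 15, 0 passed the site comparison. S100a10, which carries a sodium channel to the membrane in sensory neurons, was 10.62 in tumor 7, against 12.61 to 13.50. Mapk8ip1, a scaffold of the JNK pathway, stood at 6.97 in tumor 1 beside 9.14 to 9.61 in the others. Tumor 1 had the sign of degraded RNA, whose part in this value was not tested. Nedd4, a ubiquitin ligase, ranged from 12.42 to 13.69, and Wee1, a kinase, from 9.19 to 10.64. Of 9 genes of the REST complex, which silences Scn2a and other neuronal genes outside neurons, 8 were detected in all tumors. That count too stands beside 61.3% of all genes tested, and 0 of the 9 passed the site comparison. Rcor3, a corepressor, stood at 8.15 in tumor 7 beside 9.56 to 10.22 in the others, and Rcor2 was highest there, at 10.37 against 8.89 to 9.79.

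Other ion channel families held genes of both directions in tumor 7. Of 22 measured voltage-gated potassium channel genes, 17 were detected in at least 1 tumor. Among these 17, 4 were lowest and 5 highest in tumor 7. Over all 22 the counts were 5 and 8, beside 26.4% and 17.3% of all genes tested, detected or not. Kcna3, Kcnf1, Kcng1, Kcnh7 and Kcns3 were detected in no tumor. Kcnip1 and Kcnip4, both subunits of the A-type channel, went opposite ways: Kcnip1 was 5.81 in tumor 7 and 9.31 to 10.97 elsewhere, and Kcnip4 was 8.51 in tumor 7 and 4.33 to 5.70 elsewhere. Kcnab1, an auxiliary subunit, was 10.72 in tumor 7 and 6.81 to 8.58 elsewhere. Of 13 measured calcium channel genes, 3 were lowest and 4 highest in tumor 7, among the latter Cacna1h, a T-type pore subunit, at 9.47 against 6.12 to 8.28. None of either family passed the site comparison.

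The secreted relatives of the FHFs were listed together with the FGF receptors. Of these 13 genes, 2 were detected in all 8 tumors, beside 61.3% of all genes tested. Detected in no tumor were 7: Fgf2, Fgf5, Fgf7, Fgf10, Fgf18, Fgf20 and Fgfr3. Fgfr1, a receptor and 1 of the 2 genes detected in every tumor, ranged from 8.78 to 9.89. Fgf1, which lacks a signal peptide, was highest in tumors 2 and 5, at 7.75 and 7.43, with 6.08 to 6.85 in the others. Tumors 2 and 5 were thus the highest for Fgf1, as for Fgf14 on its brightest probe set. The Fgf14 probe sets 1447480_at and 1458830_at were instead highest in tumor 7. Of the 12 tested genes of this list, 0 passed the site comparison.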

How the data were processed

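RNA of 8 tumors was hybridised by the authors to Affymetrix whole-genome mouse arrays, 1 per tumor, and the deposited values are log2 expression per probe set. RMA and Partek 6.6 are named in the submitters' processing notes and gcRMA in the study's methods, and these values do not show which was used. Either already corrects background and normalizes between arrays, so no further normalization was applied. gcRMA and RMA treat dim probe sets differently, which bears on values near the detection limit. Array values carry no read depth, and the number of arrays limits the precision.

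Probe sets were named from the platform annotation. Promoter windows came from RefSeq (GRCm38.p6). The probe set of highest mean stood for a gene, and testing required a value over log2 5 in 2 or more tumors, which all 9 members had. Of the 29 member probe sets, 27 passed that filter. The site comparison used lmFit and eBayes of limma 3.58.1 (R 4.3.3) with Benjamini-Hochberg adjustment at 0.05, tested on simulated data. Remaining values came from Python 3.11.15, numpy 2.4.6 and pandas 2.3.3, and plots were drawn with matplotlib 3.10.9. Detection used the 95th percentile of receptor probe sets. The members and gene lists were chosen with earlier results of these data known. From each list the text names genes called in the site comparison, genes detected nowhere, and up to 4 of highest SD, though several genes that this admits, most of them cell type markers, are given by counts or averages of their list alone, and beside Fgf13 the 10 most alike and 5 most opposed genes. Clvs2, the X-linked neighbours and Xist were named outside this rule, after their values were seen. Alternatives changed the normalization, filter, probe set, test or detection limit, or dropped single tumors. Dropping tumors 1, 6 and 7 together was chosen after seeing the data.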

Additional observations from a re-analysis of the deposited data

Results flagged for a closer look

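A tumor was listed here where its gap to the nearest other tumor, as a share of the whole range, exceeded Dixon's 95% critical value. All 29 probe sets were examined over the 8 tumors and again over the 6 adrenal tumors, 58 times in all, and chance alone gives such a gap in about 1 of 20 groups. Such a gap occurred 15 times, 11 over the 8 tumors and 4 over the adrenal tumors. On the brightest probe set of each gene it occurred over the 8 tumors in 3 of the 9 genes, beside 15.1% of all genes. No share over all genes was computed for the further probe sets or for the adrenal tumors. Probe sets of 1 gene are not independent, and 6 of the 15 were tumor 7.

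Tumor 7 stood apart with a gap of 0.572 of the range in Scn3a, 0.596 in Scn3b and 0.550 in the Scn9a probe set 1442809_at, in each case as the lowest tumor. It was the highest tumor in the Fgf14 probe sets 1447480_at and 1458830_at, with gaps of 0.565 and 0.761, and in the Fgf11 probe set 1439959_at, with 0.622, where all values were under the detection limit.

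Tumor 3 stood apart as the lowest for Fgf12. The gap was 0.587 over the 8 tumors and 0.706 over the adrenal tumors on 1440270_at, 0.566 over the 8 tumors on 1451693_a_at, and 0.676 over the adrenal tumors on 1436432_at.

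Tumor 1 stood apart as the lowest on the Scn2a probe set 1427281_at, with 0.543 over the 8 tumors and 0.669 over the adrenal tumors. It did so too on the Scn8a probe set 1451894_a_at, with 0.578. Tumor 1 had the sign of degraded RNA, whose part in these gaps was not tested. Tumor 4 was the lowest on the Scn8a probe set 1442208_at, with 0.565, under the detection limit in all tumors. Tumor 2 was the highest adrenal tumor on the Fgf14 probe set 1447480_at, with 0.824. Fgf13 is not in this list, because its 2 lowest tumors keep each other's gap small.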

How the results depend on the processing

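Of 139 differences of the 8 tested members recomputed under alternatives, 129 kept their direction and their side of the threshold, 3 passed the threshold and 7 changed sign. All 3 that passed did so without tumor 8, which left tumor 7 as the lone ganglion tumor, assumed to vary like the others: Scn3a -1.08 (adjusted p = 0.0296), Scn9a -1.95 (0.0458) and Scn3b -2.10 (0.0139, with 0.0139 to 1.00 over its alternatives, by limma). The count of members called was therefore 0 to 3 with 1 tumor left out. Over all genes it was 2 to 954, with 11 without tumor 7 and 954 without tumor 8, against 3 with all tumors. It was 1 with the filter at the detection limit, 6 with the mean of all probe sets, 5 with every probe set tested and 7 without tumors 1, 6 and 7. Signs changed for Scn9a on 1421660_at (0.14), for Scn3b without tumor 7 (0.31) and without tumors 1, 6 and 7 (0.23), for Fgf11 without tumor 8 (-0.14; -0.14 to 0.28 with 1 tumor left out), for Fgf12 without tumor 7 (-0.00053; up to 1.27 without tumor 8), and for Fgf14 with the mean of its probe sets (0.83) and on 1447480_at (1.86). With a detection limit of log2 5, 8 of the 9 genes rather than 5 were detected in all tumors. The SD of Fgf13 was 0.52 on 1418498_at, 1.54 with the mean of its probe sets, and 1.41 to 2.78 with 1 tumor left out, lowest without tumor 4. The cause of these changes was not tested. Among the 139 differences, those with only the filter or the test changed kept the main difference by construction. The same holds for the brightest probe sets when every probe set was tested. All of these are counted in the 129, though their direction could not change. No paired analysis was made, because the sources do not state whether any tumors came from the same mouse. Probe sets near or under the detection limit, such as those of Fgf11 or the one standing for Tnnt3, cannot show a difference in expression.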
